A study of Arabidopsis thaliana with 6 samples.

Results

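The transcriptome of untreated, dark-kept Arabidopsis thaliana seedlings is described from the 3 arrays labelled control, with lasalocid sodium (LS) at 0 μM, out of 6 arrays in the series. They were taken by their titles, and the other 3 arrays were not used here. All 3 samples were wild-type Col-0, germinated in the dark for 3 days on agar medium and then kept for 24 h, again in the dark, in liquid MS medium with 1% sucrose. No transgene, mutation or agent was named for them in the labels. RNA came from whole seedlings, so root, hypocotyl, cotyledon and seed-coat remnants were measured together, and fewer cells of a type and less RNA per cell cannot be told apart. The labels number the 3 samples but do not say whether they came from separate cultures, so the spread between them may be technical.

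A seedling that germinates in the dark follows skotomorphogenesis. The hypocotyl elongates, the apical hook stays closed and the cotyledons do not green, while stored oil and protein are used through beta-oxidation, the glyoxylate cycle and gluconeogenesis. Protochlorophyllide oxidoreductase accumulates in etioplasts because the enzyme needs light, and phytochrome A accumulates because light would degrade it. Submerged plant tissue can become short of oxygen, and hypoxic Arabidopsis cells induce fermentation enzymes, a non-symbiotic haemoglobin and plant cysteine oxidases.

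Each array carried 43803 spots besides the control spots, for 43603 probes, of which 38413 name one of 29030 loci. The signal of a spot was taken as log2 and given relative to the 75th percentile of its array, and this difference is called the level, so a level of 0 lies at that percentile. The 75th percentile of the signal was 1447, 1404 and 1067 on arrays 1, 2 and 3, and no spot was saturated. The 320 spike-in control spots of each array stood at median levels of 1.51, 1.61 and 2.28. Array 3 was thus the dimmest array and had the highest spike-in level. All 3 arrays lay on 1 slide. For 74 loci an outlier spot was set missing and the mean is over the arrays measured. The probe with the highest mean stood for its locus, and the rank of a locus (1 is the highest) is a rank of probe signal, not of transcript number, because probes differ in sequence and position.

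Signal well above background, as the image software marks it, was found for 21480 loci (74% of 29030) on all 3 arrays. Each count of list members above background given below is to be read beside this share. A further 699 passed on 2 arrays and 800 on 1 array, and 6051 loci (20.8%) passed on none. Single arrays gave 22337, 22487 and 21814 such loci. Levels of all loci had a median of -2.18. The lowest level among spots marked as above background was -7.21, -7.38 and -7.12, and loci below that have no order among themselves. Signal was concentrated in few loci, since the 100 brightest held 17.8%, 18.3% and 19.2% of the summed linear signal of all loci on arrays 1, 2 and 3.

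UBQ10, a polyubiquitin gene, had the highest mean, with levels of 8.30, 8.40 and 8.66 on arrays 1, 2 and 3. AT2G01010, an rRNA gene in the reference, followed with 8.17, 8.46 and 8.62. Its 8 probes had means from 8.42 down to -2.40. The labelling kit primes from poly(A), and how well it represents an rRNA was not tested. ICL, isocitrate lyase of the glyoxylate cycle, came next with 7.97, 8.20 and 8.33. The ranges of these 3 loci overlapped, and so did those of every one of the 19 pairs of neighbours among the 20 brightest loci. In 3 of the 19 pairs the higher locus was higher on each array, so the order inside this group is not resolved by 3 arrays.

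GAPC1 and GAPC2, the cytosolic glyceraldehyde-3-phosphate dehydrogenases, had mean levels of 8.15 ± 0.19 and 7.91 ± 0.15 (SD, n = 3). The other polyubiquitin genes among the 20 were UBQ14 (8.08 ± 0.23), UBQ3 (7.95 ± 0.21) and UBQ11 (7.49 ± 0.29). Ubiquitin repeats are near identical, as are several members of the GAPC, Rubisco small subunit, LHCB1 and tubulin families, so probes may read more than 1 of them and single members of these families are uncertain. LTP2, a lipid transfer protein, stood at 7.95 ± 0.16, TCTP, the translationally controlled tumour protein homologue, at 7.70 ± 0.10, and AT5G60390, an elongation factor 1-alpha gene, at 7.71 ± 0.13. PBP1, a jacalin-related lectin that binds the beta-glucosidase PYK10, had a level of 7.54 ± 0.19, and GRP7, a glycine-rich RNA-binding protein, 7.45 ± 0.07. RBCS1A, a small subunit of Rubisco, closed the group at 7.44 ± 0.07. AT5G21940 stood at 7.47 ± 0.22. The loci ATMG00020 and ATCG00950, encoded in the mitochondrion and the chloroplast, stood at 7.90 ± 0.38 and 7.55 ± 0.12. Organelle transcripts carry few poly(A) tails, from which the labelling kit primes, so their places cannot be set against those of nuclear genes.

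HB1, the non-symbiotic haemoglobin that is induced by hypoxia, had the widest spread of the 20, with levels of 7.15, 7.94 and 8.34. Its rank was 32 on array 1, 6 on array 2 and 3 on array 3. AT4G27450, a locus known to respond to hypoxia, read 7.77, 7.17 and 7.89, and here array 2 was the low one. ADH1, alcohol dehydrogenase of ethanol fermentation, was steadier at 7.47, 7.65 and 7.80. Of the 20 brightest loci, 14 were also among the 20 brightest on each single array. Of the 100 brightest, 79 were, and of the 1000 brightest, 876.

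**Figure D1:**
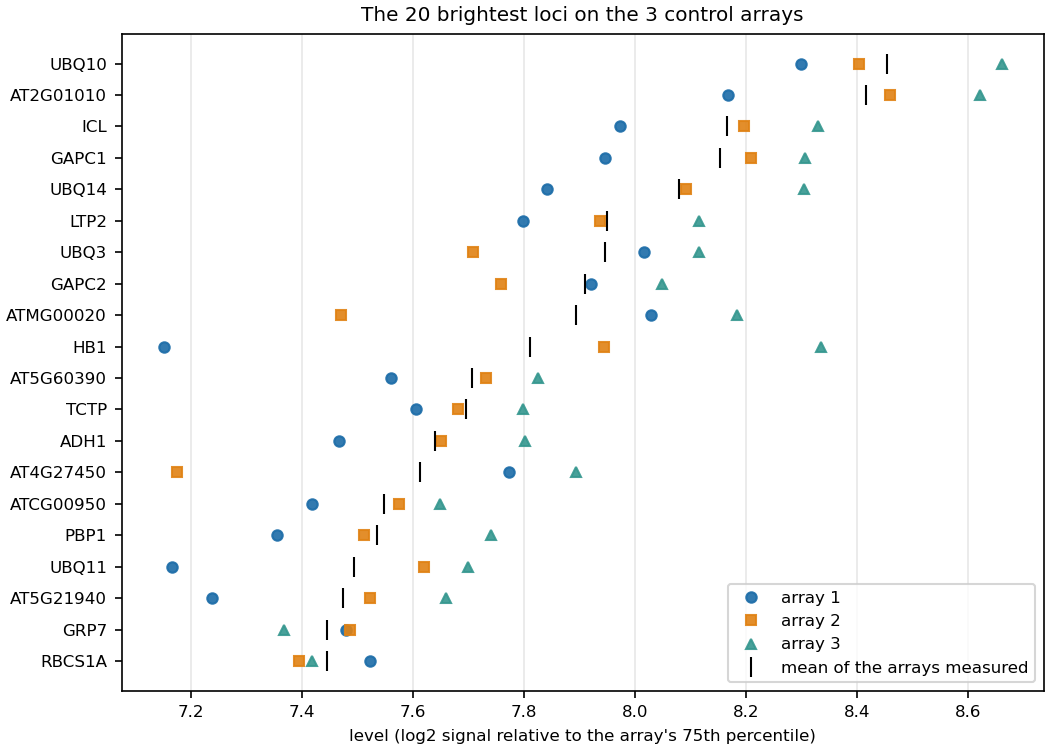
Levels (log2 signal relative to the array's 75th percentile) of the 20 brightest loci, one symbol per control array, with a bar at the mean. The values lie between 7.15 and 8.66, the symbols of neighbouring loci overlap, and HB1 spans the widest range, from 7.15 on array 1 to 8.34 on array 3.

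Rank depended more on the choice of probe than on the array. Of the 20 brightest loci, 18 had several probes, as did 82% of the 100 brightest, against 25.2% of all loci. The second-brightest probe stood at 7.69 for ICL, 7.53 for ADH1 and 7.44 for TCTP, all close to the brightest probe. For HB1 it stood at 5.01, for AT5G21940 at 3.70 and for GRP7 at 2.45, where the brightest probe read 7.45. Over 5953 loci with a second probe above background, the brightest probe exceeded it by a median of 1.65, and in 1 locus of 20 by 6.03 or more. When all probes of a locus were averaged, 44 of the 100 brightest loci stayed among the 100 brightest.

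The hypoxia genes were bright as a group. All 18 of 18 listed genes were above background on all 3 arrays, against 74% of all loci, with a median level of 4.43 and a median percentile of 97.5, where 50 is the middle of all loci. Beside HB1 and ADH1, FTM1, a stearoyl-acyl carrier protein desaturase known as SAD6, read 7.21, 6.78 and 7.06. The pyruvate decarboxylases, which feed ADH1 with acetaldehyde, read 5.60, 5.42 and 5.22 for PDC1 (AT4G33070) and 3.58, 3.81 and 3.35 for PDC2. Sucrose synthases SUS1 and SUS4 had mean levels of 4.01 ± 0.06 and 5.88 ± 0.20.

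Regulators of the oxygen response were also well above the middle of the array. The transcription factors HRE1 (ERF73) and HRE2 (ERF71) had mean levels of 3.44 ± 0.11 and 4.20 ± 0.09. The plant cysteine oxidases PCO1 and PCO2, which mark group VII ERF proteins for destruction when oxygen is present, had 3.98 ± 0.12 and 4.66 ± 0.46. HRA1 (AT3G10040), a repressor in the same response, had 4.69 ± 0.24, and AlaAT1, an alanine aminotransferase, 5.71 ± 0.20. The lowest of the list was SRO5 at 2.49, 2.37 and 2.02, and its level lay above the 90th percentile of all loci. LBD41, LDH (AT4G17260) and ETR2 had 2.56 ± 0.44, 2.93 ± 0.37 and 2.40 ± 0.31. The lowest array was array 3 for 11 of the 18 genes, beside 41.7% of all loci above background.

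A further list of 13 hypoxia-responsive loci was written after these values had been seen, so it is no independent support for the first list. All 13 were above background on all 3 arrays, against 74% of all loci, with a median level of 4.997. AT3G03270 read 7.04, 7.11 and 7.67 and AT3G10020 6.58, 6.89 and 7.13. CML38, a calmodulin-like protein, read 3.66, 3.53 and 3.75, and NIP2;1, a lactic acid-permeable aquaporin, 3.96, 3.75 and 3.52. AT5G44730 was the lowest, with 3.36, 3.33 and 2.37, and AT4G33560 read 5.30, 5.18 and 4.19, so in both of these array 3 was about 1 log2 unit below the other arrays.

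Glycolysis had the highest median level of all 32 lists, 5.91, when the brightest probe stood for each locus. All 10 of 10 genes were above background. With the mean of all probes its median percentile was 93.8 instead of 99.2, and that of the hypoxia list was higher, at 96.0. The bright end of glycolysis held the GAPC genes, FBA8 (7.30 ± 0.09), a cytosolic aldolase, and LOS2 (6.45 ± 0.05), the enolase gene ENO2. PGK, a phosphoglycerate kinase, had 5.38 ± 0.08. TPI, triosephosphate isomerase, had a value on 2 arrays only because its spot on array 1 was marked as an outlier, and these were 6.79 and 7.01. The lower end held HXK1, a hexokinase and glucose sensor (1.44, 1.04 and 1.33), and the phosphofructokinases PFK7 (1.98 ± 0.11) and PFK3 (1.20, 1.23 and 0.89).

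Genes for the use of stored reserves were bright at harvest. All 12 genes of beta-oxidation, the glyoxylate cycle and gluconeogenesis were above background, with a median level of 3.32. Beside ICL, malate synthase (MLS) read 5.22, 5.10 and 5.52 and PCK1, phosphoenolpyruvate carboxykinase, 5.79, 5.76 and 5.81. PKT3, the peroxisomal thiolase KAT2, had 5.80 ± 0.14, the acyl-CoA oxidase ACX1 5.04 ± 0.15, and SDP1, the lipase that starts oil breakdown, 2.82 ± 0.22. The lowest was LACS6, a peroxisomal acyl-CoA synthetase, which also had the widest spread of this list, with 1.23, 0.64 and 0.53. The 3 values of PCK1 differed by 0.05, so this list held both narrow and wide members.

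Seed storage and oil body genes spanned the widest range among the reserve genes. All 13 were above background, with a median level of 2.36. The cruciferin genes CRU3 and CRA1 read 7.40, 6.94 and 7.14 for CRU3, and 6.75, 5.38 and 6.69 for CRA1, so array 2 was the low array for both. GEA6, the late embryogenesis abundant protein EM6, read 6.46, 6.25 and 7.03. The oleosins OLEO1, OLEO2 and OLEO3, which coat oil bodies, had 2.39 ± 0.07, 2.36 ± 0.37 and 2.11 ± 0.10. The 2S albumin SESA1 was the lowest at -5.11, -5.49 and -6.35, while SESA5 stood at 3.90 ± 0.15. CRA1 had the widest spread of the list.

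Photosynthesis genes were bright in the dark. All 23 light-harvesting, Rubisco small subunit and early light-induced genes were above background, and the median level was 4.02. CAB1, a chlorophyll a/b-binding protein, read 7.13, 7.06 and 7.02. LHCB6, also of photosystem II, read 5.92, 5.60 and 5.55, and LHCA3, of photosystem I, read 4.61, 4.50 and 4.16. The lowest was LHCB2.1 with -4.30, -4.51 and -4.49, whereas LHCB2.2 read 4.43, 4.17 and 3.91. ELIP1, an early light-induced protein, had the widest spread, with 3.94, 4.21 and 3.11. RBCS1B had a missing spot on array 2 and read 7.24 and 7.10 on the others.

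Array 1 was the highest of the arrays for 20 of the 22 photosynthesis genes with 3 values, beside 35.9% of all loci above background. For 17 of the 22 the lowest was array 3, beside 41.7%. The members stood at median deviations of 0.23, -0.03 and -0.22 from their own means on arrays 1, 2 and 3. Array 3 was therefore 0.45 lower than array 1 in the median member, while over all loci the median difference was -0.01. Members of a list share the same 3 RNA samples and are no independent replicates of this difference.

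Genes of dark growth and light signalling had a median level of 0.82, and 17 of 17 were above background. PORA and PORB, the protochlorophyllide oxidoreductases of etioplasts, read 4.40, 3.79 and 4.37 for PORA, and 5.28, 5.02 and 5.13 for PORB. PORC, the isoform of lit tissue, read 0.25, 0.01 and 0.22. PHYA, the phytochrome of dark-grown seedlings, read 4.78, 4.77 and 4.79, with an SD of 0.01. PHYB, the main red-light receptor of light-grown plants, read 0.61, 0.97 and 0.91.

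The phytochrome-interacting factors, which repress greening in the dark, ranged from 0.95 ± 0.28 for PIF3 and 0.82 ± 0.10 for PIF4 to -0.35 ± 0.04 for PIL5 (PIF1) and -1.80 ± 0.10 for PIL6 (PIF5), the lowest of the list. COP1 and DET1, repressors of light responses, had -0.02 ± 0.06 and -0.37 ± 0.33. HY5, the transcription factor that COP1 removes in the dark, had 2.78 ± 0.20 at the RNA level. HLS1, needed for the apical hook, had -0.37 ± 0.13. PORA had the widest spread among these genes, since array 2 was lower than the other 2 arrays. No array stood out in this list: the median deviations were -0.03, 0.02 and 0.01.

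Dark-induced and sugar-repressed genes, which mark low carbon supply, were all above background (10 of 10), at a median level of 2.56. DYL1 (DRM1), a dormancy-associated gene, was the highest with 6.05, 6.16 and 6.23. DIN10, a raffinose synthase-like gene, read 4.66, 5.18 and 5.40, and BT2, a sugar-repressed BTB protein, 4.07, 4.78 and 5.16. ASN1, asparagine synthetase, read 2.26, 2.65 and 2.96. TPS9, a trehalose-phosphate synthase-like gene, had the widest spread with 1.59, 2.81 and 3.02, and TPS10 the lowest level with 1.95, 1.98 and 2.28.

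Array 1 was the lowest for 9 of these 10 genes, beside 30.4% of all loci above background, and array 3 the highest for 7, beside 34.1%. The median deviations were -0.30, 0.11 and 0.27. SEN1 was the exception, with 4.80, 5.08 and 4.59. Photosynthesis and dark-induced genes thus lay on opposite sides of their means on arrays 1 and 3. The 75th percentile and the spike-in level also differed between these arrays, and their part in this was not tested.

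Growth genes of the wall were bright, with 25 of 25 above background and a median level of 3.60. Their median percentile was 95.6, and 91.35 with the mean of all probes. AGP12, an arabinogalactan peptide, was the highest at 6.92, 7.25 and 7.35, and FLA9, a fasciclin-like arabinogalactan protein, read 7.02, 6.999 and 7.001. AGP4 had the widest spread, with 6.33, 5.36 and 6.36. Among enzymes that remodel xyloglucan, XTH15 had 5.65 ± 0.06 and XTH4 5.47 ± 0.20, whereas XTH17, the lowest of the list, read -1.62, -1.35 and -1.42. The expansins EXPA8 and EXPA11, which loosen the wall during growth, had 4.42 ± 0.09 and 3.93 ± 0.06, and EXPA5 had -0.12 ± 0.16.

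Cellulose synthases of the primary and of the secondary wall were all above background. The primary wall gene CEV1 (CESA3) read 3.75, 3.88 and 3.90. CESA1 read 2.35, 2.46 and 2.30, and CESA6 read 2.29, 2.51 and 2.31. Their partners CSI1, which links the complex to microtubules, and GH9A1 (KOR1), an endoglucanase, had 3.60 ± 0.10 and 3.15 ± 0.12. The secondary wall subunits CESA4, IRX1 (CESA8) and IRX3 (CESA7) had -0.80 ± 0.30, -0.81 ± 0.29 and -1.33 ± 0.11. All 3 secondary wall genes were lowest on array 3, beside 41.7% of all loci above background, at -0.29 from the mean in the median gene.

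Water channels and proton pumps of expanding cells had a median level of 4.73, with 10 of 10 above background. DELTA-TIP and GAMMA-TIP, aquaporins of the vacuolar membrane, read 7.27, 7.54 and 7.51 for DELTA-TIP, and 6.36, 6.56 and 6.27 for GAMMA-TIP. The plasma membrane aquaporin PIP3 (PIP2;7) read 6.36, 6.41 and 6.36, with a narrow spread. HA2, a plasma membrane proton pump, had 3.97 ± 0.14, and HA1, the lowest of the list, 2.70 ± 0.16. AVP1, the vacuolar pyrophosphatase, had the widest spread at 4.46, 4.52 and 5.02.

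All 15 tubulins were above background, with a median level of 4.14. TUA4 was the highest at 6.53, 6.63 and 6.73, TUB4 had the widest spread at 3.69, 4.22 and 4.52, and TUB7 was the lowest at -1.41, -1.73 and -1.44. Array 3 was the highest for 12 of the 15 and array 1 the lowest for 12 of the 15, beside 34.1% and 30.4% of all loci. The difference of array 3 from array 1 was 0.27 in the median tubulin, 0.39 after median centring and 0.18 after quantile normalization. With normexp correction and quantile normalization together it was 0.11. Of 8 actins, 6 were above background. The highest was ACT2 at 6.80, 6.98 and 7.15 and the widest of those above background was ACT8 at 5.36, 5.10 and 6.08, while ACT4 and ACT12, known from pollen, did not exceed background on an array.

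**Figure D2:**
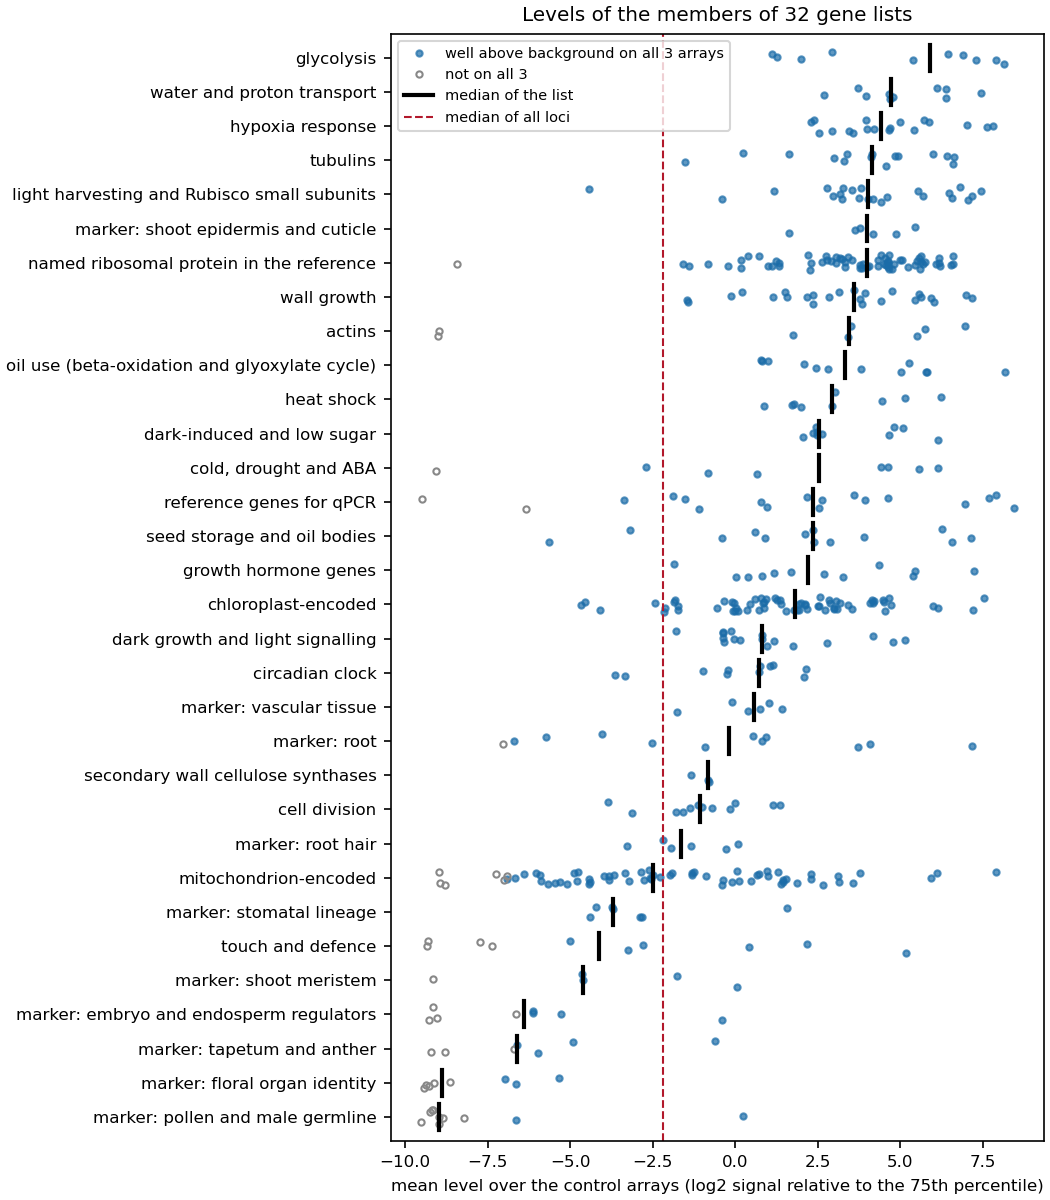
Mean levels over the control arrays of the members of 32 gene lists, ordered by the median of the list (black bar). The brightest probe stands for each locus. Filled points were well above background on all 3 arrays, open points were not, and the dashed line is the median of all loci (-2.18). Glycolysis has the highest median (5.91). The medians of the pollen and male germline markers (-8.97) and of the floral identity markers (-8.88) lie below the lowest level above background, so their order is not resolved.

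Marker genes of vegetative tissues were mostly above background, and most floral and male markers were not. Of 12 root markers, 11 were above background, beside 74% of all loci. PYK10, a beta-glucosidase of root and hypocotyl ER bodies, read 7.05, 7.24 and 7.22, and CASP1 and ESB1 of the Casparian strip had 4.10 ± 0.12 and 3.72 ± 0.12. The patterning factors SCR and SHR had 0.80 ± 0.16 and 0.93 ± 0.23. Quiescent centre and stem cell genes were dim, with WOX5 at -6.70 ± 0.16 and PLT2 at -5.72 ± 0.82, and PLT1, the lowest, passed the background mark on 2 arrays. The summed linear signal of the root markers, on the log2 scale, was 7.38, 7.57 and 7.54. Most of this sum was PYK10, so it says little of the dimmer members.

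Shoot epidermis genes were all above background (6 of 6), at a median level of 3.99. LP1 (LTP1), a lipid transfer protein, was the highest with 5.46 ± 0.09, KCS6 (CUT1), of cuticular wax synthesis, read 3.79, 3.78 and 3.78, PDF1 had the widest spread at 4.96, 4.56 and 5.13, and ATML1 was the lowest at 1.65 ± 0.28. Of 5 shoot meristem genes, 4 were above background: KNAT1 and STM had 0.06 ± 0.05 and -1.75 ± 0.10, CUC2 and CLV3 had -4.59 ± 0.13 and -4.65 ± 0.47, and WUS passed on no array. CLV3 had the widest spread of the 4. All 6 vascular markers passed, from XCP1 of xylem (1.44 ± 0.13) and SUC2 of phloem (1.02 ± 0.06) to APL (-1.51, -1.43 and -2.36), the lowest and the widest.

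Genes of the stomatal lineage had a low median level of -3.69, with 7 of 7 above background. SPCH, MUTE and FMA (FAMA), which act in sequence, had -4.39 ± 0.35, -4.21 ± 0.35 and -3.69 ± 0.06, and SPCH was the lowest and the widest. TMM was the highest at 1.89, 1.53 and 1.34. Array 1 was the highest for 5 of these 7 genes, beside 35.9% of all loci above background, and array 3 the lowest for 5, beside 41.7%.

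Of 10 pollen and male germline markers, 2 were above background on all 3 arrays and 7 on none. The 2 were MGH3, a histone H3 of sperm, at -6.50, -6.75 and -6.63, and TUA1, an alpha-tubulin, at 0.29, -0.04 and 0.48. DUO1 passed on array 3 only, and PTEN1 passed on no array. Of 8 floral identity genes, 3 passed, namely PI (-5.24, -5.38 and -5.41), SEP3 (-5.87, -7.08 and -6.92) and LFY (-7.03, -7.18 and -6.67). SEP1 and SEP2 were among those that passed on none. Among 7 tapetum and anther markers, 4 passed, with LAP6, a polyketide synthase, the highest at -0.56, -0.43 and -0.84. ACOS5 passed on 2 arrays, and MS2 and A7 passed on none.

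Of 8 embryo and endosperm regulators, 4 passed. ABI3, a regulator of seed maturation, read -0.40, -0.37 and -0.45, and FUS3 was dim with -5.73, -5.91 and -6.74. LEC1, the widest of the list, read -4.64, -5.92 and -5.29. FWA read -6.69, -5.91 and -5.78, and LEC2, FIS2 and PHE1 passed on none. The summed linear signal of this list, on the log2 scale, was -0.24, -0.26 and -0.32, most of it from ABI3. That of the floral identity list was -3.99, -4.44 and -4.32.

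Cell division genes were above background throughout (12 of 12), at a median level of -1.06. SYP111 (KNOLLE), a syntaxin of the cell plate, read 1.35, 0.82 and 1.24 and had the widest spread, and CDC2 (CDKA;1), the main cyclin-dependent kinase, was the highest with 1.21, 1.42 and 1.42. PCNA1 and MCM2 of DNA replication had -0.71 ± 0.16 and -1.001 ± 0.02. The mitotic cyclin CYCB1;1 had -3.12 ± 0.05, and CDKB2;2 was the lowest at -3.86 ± 0.15. Clock genes had a median level of 0.74 (11 of 11 above background), with PCL1 (LUX) the highest at 2.12, 2.14 and 2.19, ELF4 the widest at 0.78, 1.36 and 1.34 and RVE8 the lowest at -3.47, -3.70 and -3.72. CCA1 and TOC1, which peak at opposite times of day in a running clock, had 0.75 ± 0.24 and -0.21 ± 0.06.

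Hormone genes of growth had a median level of 2.20, with 12 of 12 above background. GASA4, a gibberellin-regulated peptide, was the highest at 7.30, 7.01 and 7.44. ACO1, an ethylene-forming enzyme, had the widest spread at 3.49, 3.45 and 2.92. CPD and DWF4 of brassinosteroid synthesis had 4.37 ± 0.14 and 0.40 ± 0.03, and GA20OX1, of gibberellin synthesis, was the lowest at -1.82, -1.85 and -1.88. IAA19, an auxin-induced gene, had 1.70 ± 0.21.

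Stress genes were mixed. All 9 heat shock genes were above background, with a median level of 2.95. HSC70-1, which is made without stress, was the highest at 6.26, 6.16 and 6.34, HSP90.1 read 5.16, 4.95 and 5.34, ATHSP22.0 had the widest spread at 1.30, 2.16 and 2.57 and HSP17.6II was the lowest at 0.81, 0.95 and 0.89. Of 8 cold, drought and abscisic acid genes, 7 passed, with RAB18, a dehydrin, the highest at 6.05, 6.19 and 6.20 and COR47 the widest of those that passed at 5.18, 5.58 and 5.94. COR15A passed on none. LTI78 (RD29A), a reporter of osmotic and cold stress, read 0.54, 0.57 and 0.86.

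Of 10 touch and defence genes, 6 passed on all 3 arrays, beside 74% of all loci. TCH3, a touch-induced calmodulin-like protein, was the highest at 5.05, 4.76 and 5.75, and TCH4, a xyloglucan endotransglucosylase, read 1.69, 2.12 and 2.73, so array 3 was the highest for both. PDF1.2, a defensin of the jasmonate and ethylene response, read -4.52, -4.86 and -5.65 and had the widest spread of those that passed. PR1 and BGL2 (PR2), markers of the salicylate response, and LOX2 passed on no array, and PR5 on a single one.

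The genes commonly used as references in qPCR were not all steady or bright. Of 18, 16 were above background on all 3 arrays, with a median SD of 0.14 beside 0.16 for all loci above background. AT4G33380 read 2.52, 2.57 and 2.54, and AT4G34270 (TIP41-like) read 2.14, 2.15 and 2.26. PP2AA3, a phosphatase subunit, read 0.68, 0.77 and 0.92, and AT4G26410, the widest of those above background, read 3.72, 3.33 and 3.77. AT1G58050 passed on no array, and AT5G55840 passed on 2 arrays. Array 3 was the highest for 10 of the 16, beside 34.1% of all loci above background, and array 1 the lowest for 10, beside 30.4%.

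Genes named ribosomal protein in the reference numbered 67, of which 66 were above background, at a median level of 3.98. RPL18 was the highest at 6.58, 6.45 and 6.79, and SSR16 had the widest spread of those above background, with 5.34, 6.58 and 6.73. RPL12-B passed on none. All 66 chloroplast-encoded loci passed, with a median level of 1.83, from ATCG00950 down to ATCG00190 at -4.67, -4.71 and -4.64. ATCG00810 had the widest spread there, with 2.84, 0.36 and 2.58. Array 2 was the highest for 1 of 64 chloroplast loci and the lowest for 38, beside 30% and 27.8% of all loci.

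Of 67 mitochondrion-encoded loci, 61 were above background, with a median level of -2.48. ATMG00580 read 5.84, 6.11 and 6.41 and ATMG01390 5.70, 5.83 and 6.32, both highest on array 3. ATMG00030 passed on none, and ATMG01400 on 1 array. Of the 61, 46 were highest on array 3, beside 34.1% of all loci above background, and none on array 2, beside 30%. The median deviations were -0.11, -0.12 and 0.24. In the median locus array 3 was 0.38 above array 1, and with normexp correction and quantile normalization together 0.21 above it. Organelle transcripts carry few poly(A) tails, and the labelling kit primes from poly(A), so their levels cannot be set against those of nuclear genes.

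The 3 arrays agreed closely for most loci. Over 21409 loci above background with a value on each array, the median SD was 0.16, with 5% of loci under 0.04 and 5% over 0.52. The SD exceeded 1 for 148 loci (0.691%) and was under 0.1 for 5525 (25.8%). The median absolute difference was 0.15 between arrays 1 and 2, 0.22 between arrays 1 and 3 and 0.20 between arrays 2 and 3. Differences of more than 1 on the log2 scale were found for 257, 764 and 515 loci in these pairs, so array 3 was the more distant one in both of its pairs.

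Dim loci were less steady. These loci were split into 5 classes of about 4282 by level. From the dimmest to the brightest class the median SD was 0.24, 0.17, 0.14, 0.14 and 0.15, and SDs over 1 numbered 64, 44, 21, 12 and 7. Noise within an array could be read from 21 probes above background that were printed as 5 spots each. Single spots of one array had a median SD of 0.14. The averages of those 5 spots had a median SD of 0.12 between arrays. An average of 5 spots carries less spot noise than a single spot, so these SDs do not compare noise within and between arrays on like terms. These probes are few, and their levels were not matched to those of other probes.

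**Figure D3:**
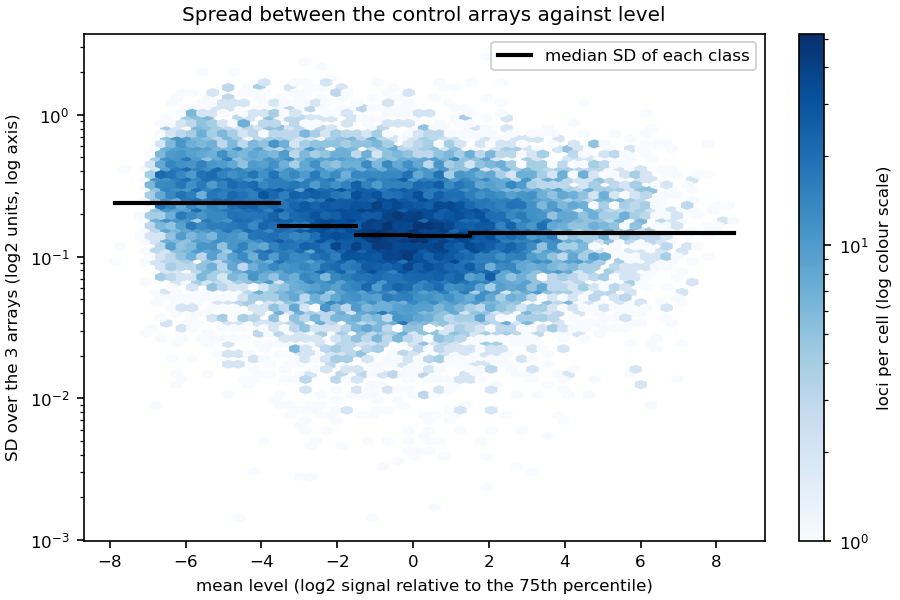
SD over the 3 control arrays (log2 units, log axis) against the mean level for 21409 loci above background, with colour for the number of loci. Bars mark the median SD of 5 classes of level of about 4282 loci each, which falls from 0.24 in the dimmest class to 0.14 in the middle and is 0.15 in the brightest.

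The steadiest loci in the brighter part of the range were TRN1, transportin 1, with 0.45, 0.45 and 0.44 (SD 0.00167), and BGAL10, a beta-galactosidase active on xyloglucan, with 2.04, 2.03 and 2.03 (SD 0.00244). AT3G05000, AT1G16170 and AT5G22480 had mean levels of 3.20, 2.70 and -0.41, with SDs of 0.00297, 0.00328 and 0.00376. None of these 5 was on the reference list. These were picked as the smallest SDs among many loci with 3 arrays each, and a second probe of AT1G16170 read 2.52, 2.57 and 2.52, which is a wider range than that of its first probe.

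The widest spread was that of AT1G10745, named EMBRYO SURROUNDING FACTORS 1.2 in the reference, with -0.999, 2.85 and 3.86, so array 1 was low. AT1G23830 read -1.44, -5.53 and -1.71, with array 2 low, and AT5G15910 -0.94, -1.30 and -5.07, with array 3 low. AT5G44555, a transcribed pseudogene, read -6.46, -7.08 and -3.18, with array 3 high. EXPA17, an expansin, read -3.76, -3.42 and -6.96, and AT2G41810 read -3.01, -2.78 and -5.93, both low on array 3. SMP1, seed maturation protein 1, read -0.07, -2.96 and 0.22, and AT5G37740 read 3.21, 0.40 and 3.61, both low on array 2. AT5G60520 read -0.91, -1.46 and -4.18, with array 3 low, and AT5G03020, the last of the 10, read -2.20, -4.94 and -1.71.

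A wide spread was often not shared by another probe of the same locus. For AT5G15910 a second probe read -5.44, -5.46 and -5.47, and for AT5G37740 it read 1.57, 1.66 and 1.42, which is flat in both cases. Of the 100 loci with the widest spread, 15 had a second probe above background, and its farthest array and direction were the same in 3 of the 15, beside 34.7% of 5953 loci in all. The median SD was 1.31 for the first probes of these 15 and 0.40 for the second, although the 100 loci were chosen for the spread of the first. IRT1, the iron transporter of the root epidermis, was one of the 3 that were alike: its first probe read -2.67, -3.67 and -5.80 and its second -3.39, -3.92 and -6.20. Of the 15, 5 had array 3 as the farthest and low array, and the second probe was alike in 2 of these 5. Their median SD was 1.60 for the first probes and 0.86 for the second.

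Array 3 was the farthest from the other 2 in 54 of the 100 widest loci and the low one in 49, beside 44.3% and 26.9% of all loci above background. Within the brighter part of the loci, array 3 was the low one in 35 of the 100 widest and the high one in 14. Of the 49, 5 are given here, chosen after their values had been seen. FRO4, an iron reductase, read -2.80, -3.19 and -5.78, and ZIP3, a zinc transporter, 0.86, 0.42 and -1.83. The ammonium transporter AMT1;3 read 1.80, 1.61 and -0.27. CYP735A2, which makes trans-zeatin cytokinins, read -1.81, -1.79 and -4.56, and GH9C1, an endoglucanase, read -2.23, -2.45 and -5.04. In each of these, arrays 1 and 2 lay within about 1 log2 unit of each other and array 3 lay lower.

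Root hair markers gave the largest median difference between arrays 1 and 3 among the 32 lists, with array 3 lower by 0.92. With normexp correction and quantile normalization together the difference was 0.52, in the same direction. All 6 on the list, which also holds genes of non-hair cells, were above background. Their median level was -1.63, with median deviations of 0.35, 0.11 and -0.48. EXPA7, a root hair expansin, read -1.46, -1.81 and -3.31, SHV2 (COBL9), the widest of the list, -0.62, -0.79 and -2.57 and RSL4, the lowest and the transcription factor that sets hair length, -2.43, -3.40 and -4.04. The factors that act earlier, in cell fate, differed less between arrays. RHD6 read -0.21, 0.08 and 0.38, with array 3 the highest, so the 6 genes did not all share the direction of the median difference. GL2 and MYB66 (WER) specify non-hair cells, and are not markers of the hairs themselves. GL2 read -0.28, -0.07 and -0.50 and MYB66 -1.96, -1.93 and -1.91. Of the 6 genes, 4 were lowest on array 3, GL2 among them, beside 41.7% of all loci above background.

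A list of 14 further genes of root hair growth, written after this had been seen, had array 3 as the lowest for 11, beside 41.7% of all loci above background. Because its genes were chosen with the values known, this count is no independent support. Array 3 was 0.95 below array 1 in the median gene. PRP1 and PRP3, proline-rich wall proteins, read -2.61, -2.91 and -4.85 for PRP1, and -1.01, -1.37 and -2.38 for PRP3. EXPA18 read -1.73, -2.21 and -3.85, and PERK13 (RHS10) read -1.82, -1.96 and -2.94. In each of these array 3 was the lowest. RHD2, an NADPH oxidase, read 0.02, 0.09 and 0.12, and RHD4 read -0.16, -0.05 and -0.08, with no such difference.

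Iron uptake genes, on a list of 12 that was also written afterwards, were split. Their counts are likewise no independent support for a low array 3. Of the 9 above background on all 3 arrays, 6 were lowest on array 3, beside 41.7% of all loci above background. IRT2 read -2.55, -2.51 and -4.49, FRO2 -2.49, -2.89 and -3.33 and bHLH38 -3.12, -3.30 and -4.15. MYB10 read 1.36, 1.16 and 1.42, and AT3G13610, the coumarin synthesis gene F6'H1, read 3.02, 3.37 and 3.57, so these were not lower on array 3. Of the 11 root markers above background, 5 were lowest on array 3, a share near the 41.7% of all loci above background. IRT1 was 1 of the 5, and PLT2, with -4.87, -5.79 and -6.50, was another. PYK10, CASP1 and SMB were not, with SMB at -2.54, -2.55 and -2.42. The median deviation of the 12 root markers on array 3 was -0.08. The lower signal of array 3 and its spike-in level moved with these differences, and their part was not tested.

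**Figure D4:**
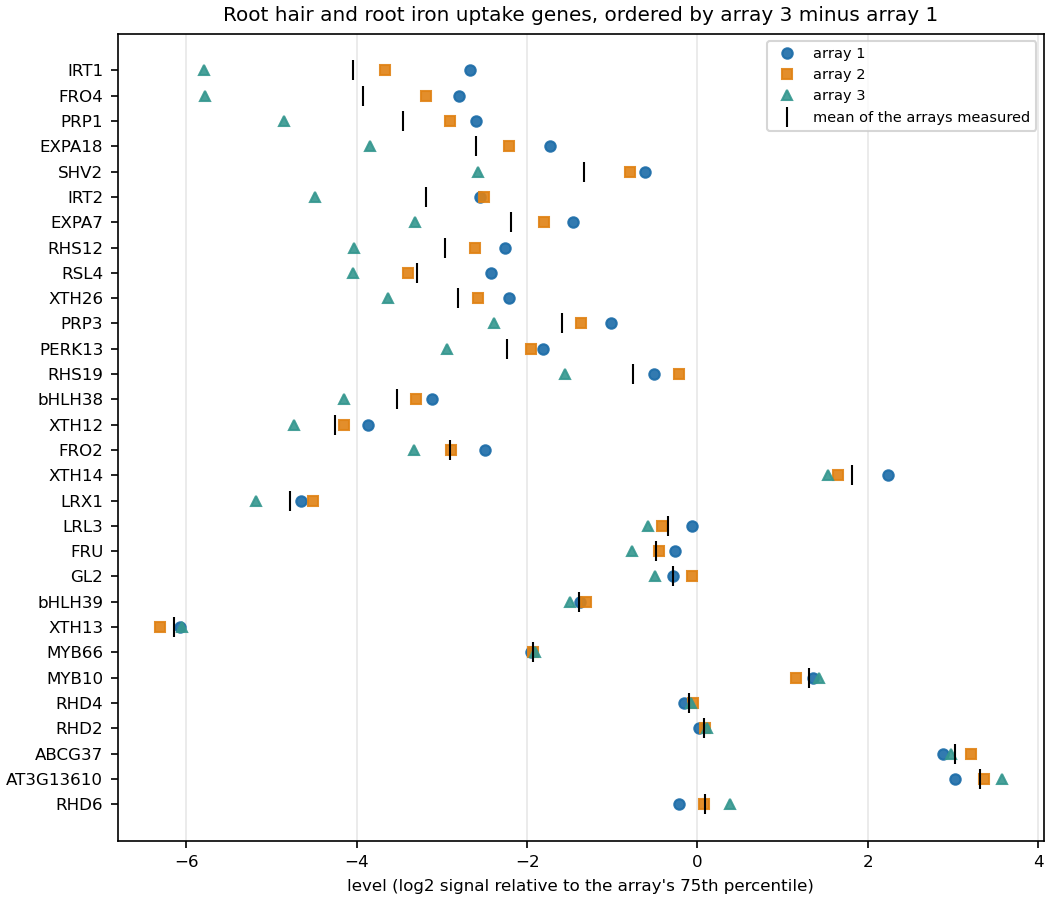
Levels on each control array of the root hair and iron uptake genes above background, ordered by array 3 minus array 1 (bars at the mean). In IRT1, FRO4, PRP1 and EXPA18 the triangle of array 3 lies well to the left of the other symbols. RHD2, RHD4 and MYB66, a gene of non-hair cells, show 3 nearly coincident symbols.

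**Figure D5:**
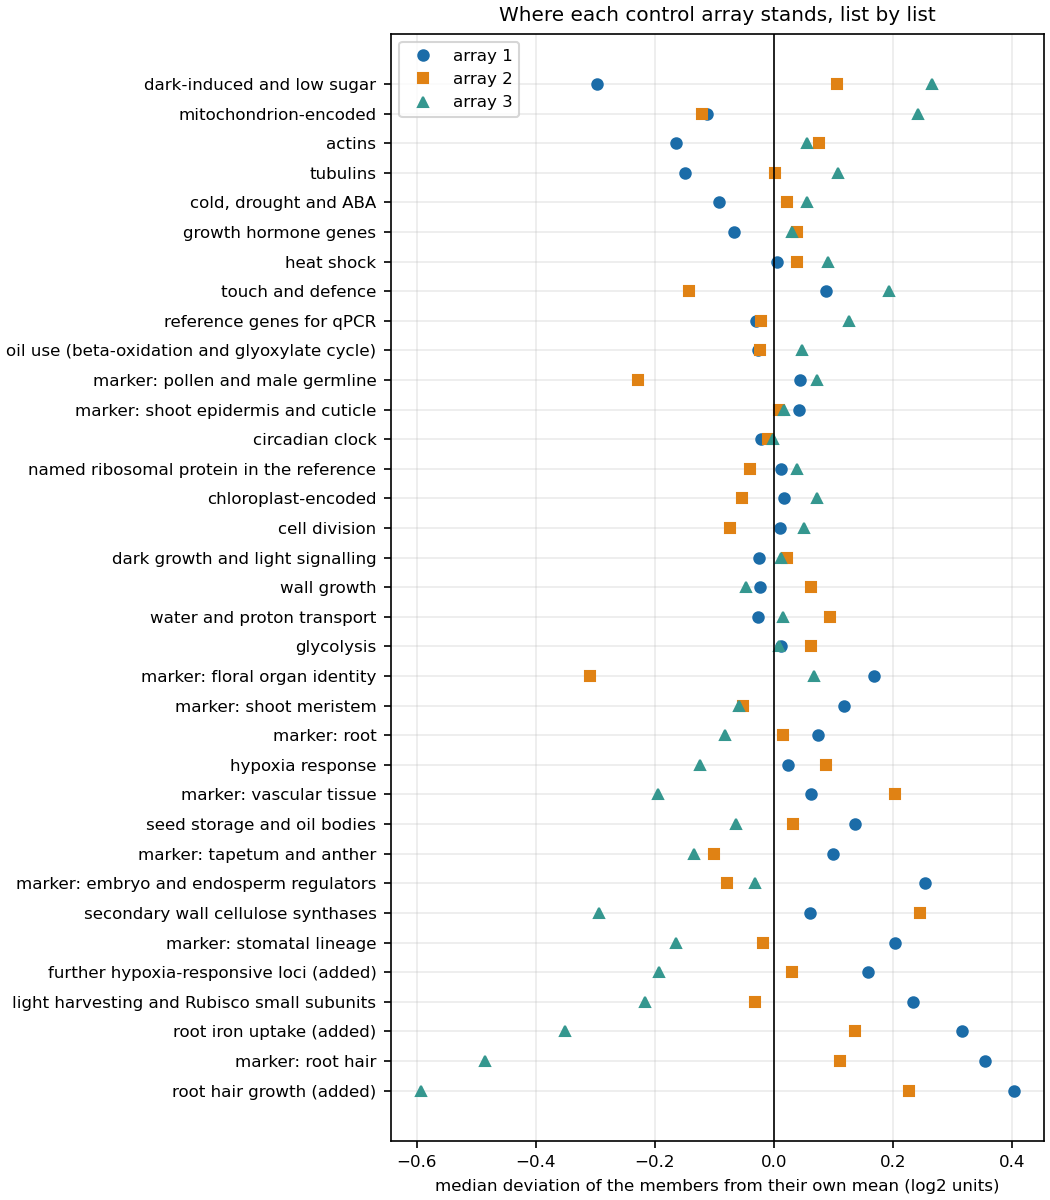
Median deviation of the members of each list from their own mean (log2 units) on each control array, ordered by array 3 minus array 1. Dark-induced genes lie lowest on array 1 and highest on array 3 (-0.30 and 0.27), photosynthesis genes lie the other way (0.23 and -0.22), and root hair growth genes lie farthest below 0 on array 3; lists marked as added were written after the values had been seen.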

How the data were processed

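Total RNA was labelled with Cy3 and hybridised to 1-colour Agilent Arabidopsis arrays. The authors deposited Agilent Feature Extraction 10.7.3 output, in which the processed signal is a background-subtracted intensity per spot, and a table in which each value is a ratio to a per-array scale. On the 3 control arrays 100% of the 38614 deposited ratios were the processed signal divided by the 75th percentile of the listed spots, within 1%.

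Control spots were removed, log2 of the signal minus that of the 75th percentile was taken, outlier spots were set missing, spots of a probe were averaged, and the brightest probe stood for its locus. No test was run, since there is 1 group of 3 arrays, and their number limits the precision. Names came from the RefSeq TAIR10.1 table, which matched 28595 of 29030 loci. Python 3.11.15, pandas 2.3.3, numpy 2.4.6, R 4.3.3 and limma 3.58.1 were used. On simulated arrays of 21409 loci, 100% of 200 lowered loci were recovered among the widest. There every locus had the same noise, the median SD of 0.16, and the lowering was many times that noise. Recovery was thus near certain, and the simulation does not show how loci of unequal noise are ranked.

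The genes named are the 20 brightest, the 10 widest and 5 steadiest loci, and in each list the highest, the lowest and the widest member, with other members as examples. Members that passed the background mark on no array are named without a rank, since they have no order. The group and the lists were chosen with earlier results of these data known, and 3 lists were added after these values were seen. No sequence was used, and promoter letters were not searched.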

Additional observations from a re-analysis of the deposited data

Results flagged for a closer look

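Of the 5190 probes that name no locus, and that the description above does not use, 2685 (51.7%) were well above background on all 3 control arrays. Of the 153 negative control spots on each array, 1.31%, 0.654% and 0% were marked in the same way. The probes without a locus had a median level of -6.56, and 14 of them were at least as bright as the locus of rank 100. The brightest, TA26778_3702, read 7.57, 7.76 and 8.04 on arrays 1, 2 and 3.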

How the results depend on the processing

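The description was repeated with median centring, quantile normalization, normexp correction on the median signal with quantile normalization, the deposited table, the mean of all probes, outlier marks ignored and each array left out. Of the 100 brightest loci, 94 to 100 stayed under the alternatives other than the mean of all probes, which kept 44, and leaving out an array kept 95 to 98. The median SD of 0.16 became 0.10 after normexp and 0.20 over all loci, and was 0.11 to 0.15 with an array left out, the lowest without array 3. Loci above background numbered 22179 on at least 2 arrays, 22979 on at least 1, 21483 by any probe, and 21530 to 22026 on the arrays left. Lists with a median above the 90th percentile numbered 14 of 32, 11 with the mean of all probes, 15 over members above background, and 13 to 14 with an array left out. The median percentile of a list moved by at most 4.29 points, and by up to 22.5 with the mean of all probes. That largest move was in the cold, drought and abscisic acid list, from 87.6 to 65.1. Alternatives for the differences between arrays were chosen after seeing the data, and each kept the direction of array 3 minus array 1 in the 6 lists examined, with ranges of -0.96 to -0.78 for root hair growth genes, -0.92 to -0.52 for root hair markers, -0.59 to -0.33 for photosynthesis genes, 0.35 to 0.62 for dark-induced genes, 0.21 to 0.50 for mitochondrial loci and 0.11 to 0.39 for tubulins. Array 3 was the farthest in 49 to 58 of the 100 widest loci. No paired analysis was possible because there is 1 group. Promoter letters were not run. Loci under the lowest signal above background have no order.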

Other observations

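By the reference's gene types, 78.4% of 26235 protein-coding loci were well above background on all 3 control arrays, against 15.5% of 1238 pseudogenes and 34.5% of 728 transcribed pseudogenes. Of 68 loci of miRNA genes, 19 passed (27.9%), and of 178 long non-coding RNA loci, 128 (71.9%). Protein-coding loci made up 94 of the 100 brightest. The others were 1 rRNA, 1 snRNA and 1 snoRNA locus and 3 loci that the reference does not hold. The gene types differ in level, with medians of -1.72 for protein-coding and -4.53 for long non-coding RNA loci.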
